A study of Mus musculus with 18 samples.

Results

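Amino acid transporters were taken as the protein-coding genes of the Slc1, Slc3, Slc7, Slc36, Slc38 and Slc43 families, chosen by symbol alone. The table of the diet comparison held 32 of them among 22137 genes and the table of the hairpin comparison held 34 among 24778, with 32 present in both. Slc1a7 and Slc36a3 were listed only in the hairpin table. RNA came from tumours that MC38 cells, a colorectal cancer line of the mouse, had formed in the liver after injection into the spleen. The mice were labelled wild type, with no age or sex in the labels. One group was fed a low-fat diet (LFD, 5 libraries) and one a high-fat diet (HFD, 5 libraries), with no hairpin named in the labels of either. The other groups were all fed the high-fat diet and carried either a control hairpin (shCon, 4 libraries) or a hairpin against Yap (shYap, 4 libraries). No label names the hairpin sequences or the vector, or says whether each line was 1 clone.

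These carriers move amino acids across the plasma membrane and across organelle membranes. Many work in pairs: Slc3a2 and Slc3a1 are heavy chains that bring Slc7 light chains to the cell surface, and the light chain sets the substrate. Slc1a5 and the Slc38 carriers of system A load cells with small neutral amino acids, which exchangers such as Slc7a5 with Slc3a2 then trade for leucine and other large neutral ones. Slc7a11 with Slc3a2 imports cystine for glutathione synthesis in exchange for glutamate. The Slc7 carriers without a heavy chain import arginine and lysine, and Slc36a1, Slc38a7 and Slc38a9 act at lysosomes. Liver has its own set, with Slc38a3, Slc38a4, Slc7a2 and Slc1a2 known from hepatocytes, while tumours are often described as rich in Slc1a5, Slc7a5 and Slc7a11.

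Total estimated counts were 17766207 to 18474191 per library in the diet table and 17207214 to 21309950 in the hairpin table. The tables were deposited apart, so each was scaled alone and levels are not compared across them by test. Levels are given as CPM, the count divided by a library size that TMM factors had scaled. Albumin (Alb), the main secreted product of hepatocytes, served as the measure of liver RNA in each library. It took 2.13%, 0.579%, 1.07%, 0.818% and 3.52% of the counts in LFD replicates 1 to 5, but 0.158%, 0.205%, 0.0184%, 0.0206% and 0.0365% in HFD replicates 1 to 5. It took 0.451%, 1.14%, 1.06% and 1.89% in shCon replicates 1 to 4 and 1.16%, 2.17%, 0.848% and 3.33% in shYap replicates 1 to 4. Every LFD library thus held more albumin than every HFD library, whereas the shCon and shYap libraries overlapped. In bulk RNA, fewer cells of a type and less RNA per cell cannot be told apart. Xist, expressed in female cells, stood at 72.9 to 135 CPM in LFD libraries and at no more than 0.293 CPM in the other 13, so whatever sets Xist and the diet cannot be told apart in the diet comparison. The targeted transcript, Yap1, was at 78.1, 82.4, 73.8 and 77.4 CPM in shCon. Libraries labelled shYap held 71.6, 80.0, 81.4 and 70.5 CPM of it, so it did not separate these groups, and shYap below means only that label. Summed markers of other cells also separated the diet groups, with fibroblast genes at 2930 to 5521 CPM in LFD and 6433 to 8537 CPM in HFD, B cell genes at 66.5 to 191 and 17 to 36.7 CPM, and Kupffer cell genes at 89.6 to 241 and 18.9 to 84 CPM. Neutrophil genes were at 42.9 to 63.1 CPM in LFD and 16 to 25.6 CPM in HFD, while the macrophage (2072 to 4380 and 2753 to 3599 CPM), endothelial (111 to 217 and 96.6 to 139 CPM), T cell (30.5 to 107 and 10.9 to 38.4 CPM) and epithelial sums (54.3 to 543 and 188 to 359 CPM, 7 of 8 markers listed) overlapped. HFD libraries lay close together, with a median absolute log2 difference of 0.126 between replicates 1 and 2 and of 0.12 between replicates 3 and 4. Whether each library was a different mouse is not stated, and p-values then cover only the spread between libraries, which may be technical.

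Per kilobase of exon, the transporter transcripts of HFD tumours were led by the heterodimer of Slc7a5 (45.4 ± 7.71 CPM per kb, mean ± SD, n = 5) and Slc3a2 (41.3 ± 3.41), followed by Slc38a2 (34.3 ± 1.78), Slc38a10 (20.2 ± 0.689) and Slc1a5 (16.9 ± 0.74). The first 2 of these did not differ beyond their spread, and each of the next 3 lay below the one before it by more than the spread. In LFD tumours the order was led instead by Slc38a3 (166 ± 147 CPM per kb, n = 5) and Slc38a4 (104 ± 99), ahead of Slc7a5 (54.3 ± 24.5), Slc3a2 (44.1 ± 10.6) and Slc38a2 (30.6 ± 4.54). The spread of the first 3 there was too wide to order them. Both hairpin groups began with Slc7a5 (61.1 ± 11.8 in shCon and 68.6 ± 40.8 in shYap, n = 4 each), Slc38a3 (54.9 ± 27.9 and 58.3 ± 32.6), Slc3a2 (37.7 ± 6.1 and 45.5 ± 8.23) and Slc38a4 (32.4 ± 16.8 and 37.7 ± 16). These carriers did not differ beyond their spread from the next in the order, and Slc38a3 lay above Slc7a5 in shCon replicate 4 and in shYap replicates 2 and 4.

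To tell liver from tumour transporters, each gene was fitted against the log2 level of Alb with the group as a term. The resulting albumin slope is the log2 change in a transporter per doubling of Alb within a group. The 11 other hepatocyte markers, which include Apoa1, Ttr and Hnf4a, had a median slope of 0.93 in the diet table (range 0.67 to 1.29, 11 of 11 past the threshold). Their median was 0.86 in the hairpin table (range 0.58 to 1.10, 8 of 11 past it). The threshold throughout was an adjusted p of 0.05, from edgeR's quasi-likelihood test with Benjamini-Hochberg adjustment over all genes of a table. Of the 26 transporters tested in the diet table, 4 had slopes above 0, against 6.73% of the 16340 genes tested. The hairpin table had 3 of 27 above 0, against 3.31% of the 16571 genes tested. Among the 15927 genes tested in both tables, 2.61% were above 0 in both. The transporters that met that rule, called liver-side here, were Slc38a4 and Slc7a2. Of the rest, 24 members were unsettled and 8 were not tested in both tables.

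**Figure D1:**
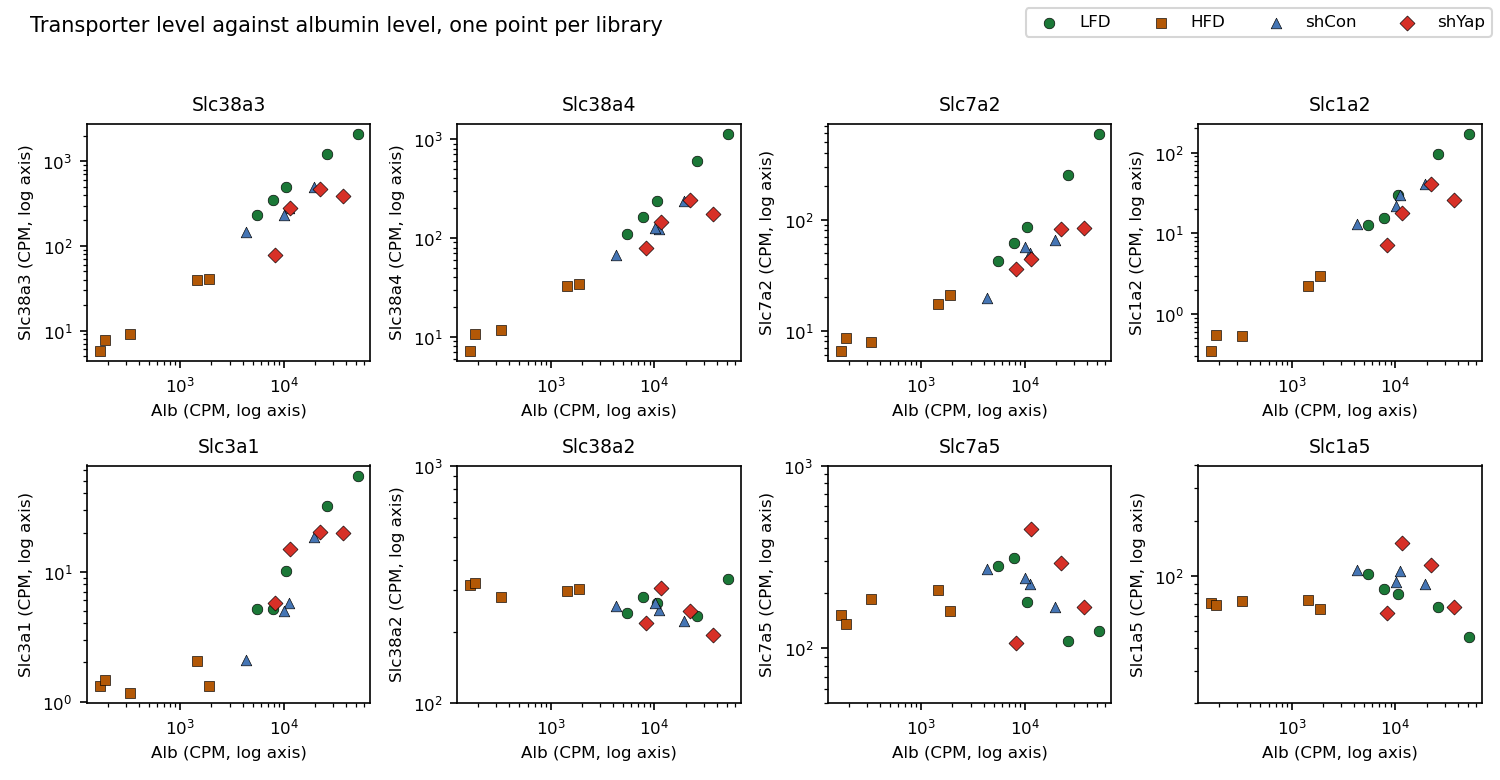
Level of 8 transporters (CPM, log axis) against the level of Alb (CPM, log axis), 1 point per library, with LFD, HFD, shCon and shYap libraries marked by colour and shape. Slc38a3, Slc38a4, Slc7a2, Slc1a2 and Slc3a1 climb with Alb from the HFD libraries at its low end to LFD replicates 1 and 5 at its high end, while Slc38a2, Slc7a5 and Slc1a5 do not. Levels of the tables were scaled separately.

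Slc38a3 (chr9:107650634-107669530 in GRCm38), a system N carrier of glutamine, histidine and asparagine, reached 1209.6, 233, 497, 349 and 2089.5 CPM in LFD replicates 1 to 5. It stood at 39.8, 41.2, 5.79, 7.80 and 9.10 CPM in HFD replicates 1 to 5. The groups did not overlap, and LFD replicates 5 and 1 as well as HFD replicates 1 and 2, those highest in Alb, were highest in Slc38a3. Its slope was 0.89 ± 0.05 (SE, adjusted p = 8.65e-07) in the diet table. The slope of the hairpin table was 0.84 ± 0.20 (adjusted p = 0.058), short of the threshold, with 147, 283, 234 and 494 CPM in shCon and 285, 478, 78.7 and 390 CPM in shYap libraries.

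Slc38a4 (chr15:96994820-97055956), a system A carrier that also takes cationic amino acids, followed the same order of libraries in the diet table. It measured 595, 109, 237, 162 and 1118 CPM in LFD and 33.0, 34.1, 7.25, 10.6 and 11.6 CPM in HFD replicates 1 to 5. Levels in the hairpin table were 66.5, 123, 125 and 237 CPM in shCon and 146, 244, 78.4 and 174 CPM in shYap. The slopes were 0.79 ± 0.08 (adjusted p = 6.12e-05) and 0.69 ± 0.14 (adjusted p = 0.0358). Slc7a2 (chr8:40862396-40922308), the arginine and lysine carrier of hepatocytes and activated macrophages, measured 250.1, 42.5, 86.6, 61.4 and 588 CPM in LFD and 17.4, 20.7, 6.60, 8.60 and 7.92 CPM in HFD. It measured 19.5, 49.8, 56.5 and 65.1 CPM in shCon and 43.8, 82.9, 35.96 and 83.9 CPM in shYap. Its slopes were 0.77 ± 0.12 (adjusted p = 0.00241) and 0.71 ± 0.11 (adjusted p = 0.0153). For Slc38a4 the hairpin call was lost without shCon replicate 1, 2, 3 or 4 or shYap replicate 2 or 3 (adjusted p = 0.16, 0.0733, 0.0762, 0.193, 0.0635 and 0.0841). For Slc7a2 it was lost without shCon replicate 1 or 4 (adjusted p = 0.0796 and 0.0727). With any 1 library left out, the slopes stayed within 0.59 to 0.88 for Slc38a4 and 0.57 to 0.82 for Slc7a2.

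Slc1a2 (chr2:102658659-102790784), a sodium-coupled glutamate carrier best known from astrocytes and also present in hepatocytes near the central vein, had the steepest slope of the diet table members, 1.10 ± 0.08 (adjusted p = 9.53e-06). It measured 96.6, 12.5, 30.1, 15.5 and 169 CPM in LFD and 2.24, 2.93, 0.353, 0.554 and 0.538 CPM in HFD. Its slope in the hairpin table, 0.81 ± 0.19, did not pass (adjusted p = 0.0569). The range there was 13.1 to 40.5 CPM in shCon and 7.26 to 40.5 CPM in shYap. Without shYap replicate 1, Slc1a2 and Slc38a3 passed as well, and with Slc38a4, Slc7a2 and Slc3a1 there were 5 members above 0. Over the HFD libraries alone, where Alb was lowest, the slope was 0.82 ± 0.05 for Slc38a3, 0.60 ± 0.04 for Slc38a4 and 0.43 ± 0.05 for Slc7a2, all past the threshold, against 3.92% of the 15104 genes tested there that were above 0. Slc1a2 did not pass the filter on low counts in that fit and was not tested there. Over the shCon libraries alone Slc1a2, Slc38a3, Slc38a4, Slc7a2 and Slc3a1 passed, against 5.01% of 15489 genes, and over the shYap libraries alone 0 members and 0 genes did.

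Slc3a1 (chr17:85028376-85064236), the heavy chain of the cystine and dibasic amino acid carrier, passed in the hairpin table (1.05 ± 0.21, adjusted p = 0.0314) and missed the threshold in the diet table (0.64 ± 0.18, adjusted p = 0.0648). It measured 31.9, 5.18, 10.2, 5.18 and 54.1 CPM in LFD and 2.04, 1.31, 1.31, 1.46 and 1.17 CPM in HFD. The LFD libraries followed Alb (slope over these alone 1.16 ± 0.09, adjusted p = 7.49e-05), but the HFD libraries stayed near one level (0.09 ± 0.10, adjusted p = 0.749). The hairpin call was lost without any of shCon replicates 1 to 4 or shYap replicates 2 and 3, with adjusted p of 0.0661 to 0.159. Slc3a1 shares 601 exon bases, 26.5% of its exon length, with Prepl on the opposite strand. The sources used here do not say whether counting used strand, so reads of Prepl and Slc3a1 cannot be told apart there.

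Slc3a1 was also the only 1 of the 25 transporters with a RefSeq promoter window (250 bases before to 50 bases after the start, GRCm38.p6) to hold the letters CAAAGTCCA, the core bound by the hepatocyte factor HNF4A. The stretch shown is chr17:85028247-85028353 on the plus strand, from 100 bases before the start to 7 bases after it. Capitals mark CAAAGTCCA at bases -39 to -31 and ATTAAC at bases 2 to 7, GTTAAT read on the other strand, a core of HNF1 sites.
Slc3a1: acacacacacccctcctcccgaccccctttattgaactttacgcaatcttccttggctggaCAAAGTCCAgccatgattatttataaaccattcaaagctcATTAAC
Searched on both strands, CAAAGTCCA was found in windows of 0.6% of 27025 genes and GTTAAT in those of 8.2%, the latter in 4 of 25 transporters (Slc36a1, Slc3a1, Slc7a15 and Slc7a7). These 2 motifs do not overlap in the stretch. A match describes the letters only. No window was available for Slc38a3, Slc7a2, Slc7a5, Slc1a5, Slc38a1, Slc7a3, Slc7a4, Slc36a2 or Slc43a3, so these members were not searched.

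No transporter had a slope below 0 past the threshold in either table with edgeR, DESeq2 or limma voom. All genes gave 0.318% in the diet table, 0.115% in the hairpin table and 0% in both. At an unadjusted p under 0.05, edgeR had 1 such member in the diet table (Slc1a5) and 2 in the hairpin table (Slc38a9 and Slc3a2), against 7.27% and 7.11% of all genes. With no filter on low counts, Slc38a5 was below 0 in the diet table (-3.77 ± 0.77, adjusted p = 0.0358). Its counts were 0, 144, 0, 24 and 1 in LFD replicates 1 to 5 and 0 in every HFD library. In the hairpin table Slc38a9 was at -0.48 ± 0.16 (adjusted p = 0.16). It passed below 0 there without shYap replicate 1 and with the other hepatocyte markers in place of Alb. The slope of Slc38a9 was -0.22 ± 0.11 (adjusted p = 0.347) over the shCon libraries alone and -0.65 ± 0.24 (adjusted p = 0.497) over the shYap libraries alone. In shYap replicate 3, the lowest of its group in Alb, Slc38a9 was at 50.1 CPM, against 15.4 to 18.4 CPM in the other shYap libraries. No transporter was below 0 past the threshold in both tables, so the rule named no tumour-side transporter. Over the LFD libraries alone, 7 members had negative slopes past the threshold, against 15.5% of the 15011 genes tested there. They were Slc7a5 (-0.46 ± 0.10, adjusted p = 0.0143), Slc38a1 (-0.36 ± 0.06, adjusted p = 0.00413), Slc7a1 (-0.35 ± 0.07, adjusted p = 0.0089), Slc1a5 (-0.33 ± 0.05, adjusted p = 0.00246), Slc43a2 (-0.30 ± 0.07, adjusted p = 0.0155), Slc3a2 (-0.25 ± 0.06, adjusted p = 0.0118) and Slc7a6 (-0.22 ± 0.04, adjusted p = 0.00874). None of these 7 had such a slope over the HFD, shCon or shYap libraries alone.

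**Figure D2:**
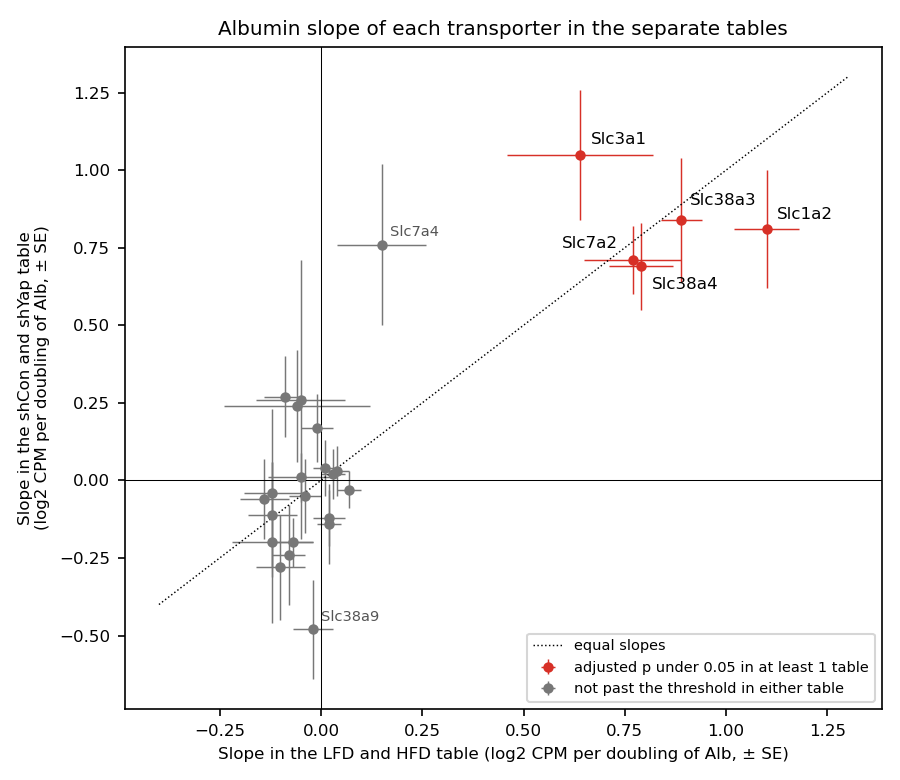
Albumin slope of each transporter tested in both tables (log2 CPM per doubling of Alb, ± SE), with the LFD and HFD table on the horizontal axis and the shCon and shYap table on the vertical axis. Slc1a2, Slc38a3, Slc38a4, Slc7a2 and Slc3a1, the members past the threshold in at least 1 table, lie at 0.64 or above on both axes. The members in grey gather around 0 on the horizontal axis, between -0.14 and 0.15. On the vertical axis they run from -0.48 (Slc38a9) to 0.76 (Slc7a4, ± 0.26, adjusted p = 0.159 in edgeR). Slc7a4 lies above Slc38a4 and Slc7a2 on that axis.

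Slc1a2, Slc38a3, Slc38a4, Slc3a1 and Slc7a2 are called the 5 albumin-following members below. Of the summed transporter level per kilobase, they made up 66.4%, 20%, 40.1%, 26.3% and 77% in LFD replicates 1 to 5. Their share was 6.4%, 7.27%, 1.69%, 2.36% and 2.28% in HFD replicates 1 to 5. For the hairpin libraries it was 14.3%, 26.2%, 24.8% and 40.4% in shCon and 20.6%, 36.1%, 15.1% and 36.5% in shYap. The other 27 members summed to 263 ± 49.5 CPM per kb in LFD, 246 ± 13.6 in HFD (n = 5 each), 262 ± 16.9 in shCon and 287 ± 75.6 in shYap (n = 4 each). Within each table the sums of these 27 overlapped between the groups. These shares describe the libraries and were not tested, since the 5 were chosen by their slopes.

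**Figure D3:**
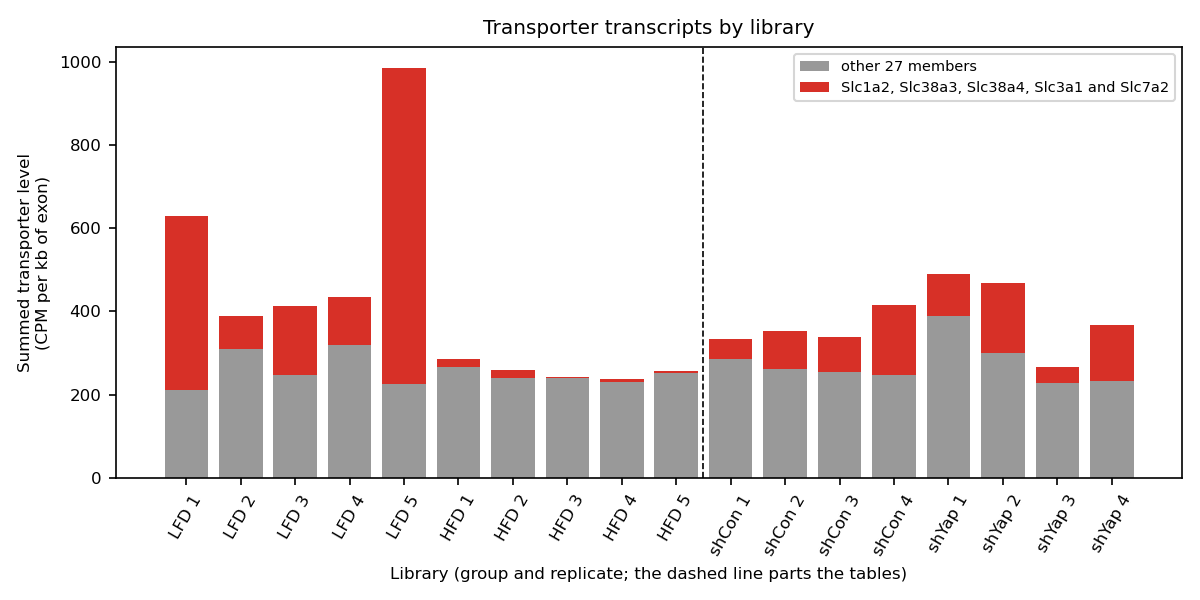
Summed level of the 32 transporters present in both tables (CPM per kb of exon) in each library, split into the 5 albumin-following members in red and the other 27 in grey; the dashed line parts the tables. The red part reaches 760 CPM per kb in LFD replicate 5 and stays at or below 18.9 in HFD libraries, and the grey part runs from 211 to 390 across all libraries.

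The diet comparison asked how transporter transcripts of metastases differed between mice on high-fat and low-fat diets. HFD tumours had 9 of the 26 tested transporters lower (34.6%) and 1 higher (3.85%), and 16 did not pass. Over all 16340 genes tested, 21.6% were lower and 19.4% higher. All 5 albumin-following members were among those lower, with Slc1a2 (-5.60 ± 0.98 log2, adjusted p = 0.00218) and Slc38a3 (-5.40 ± 0.91, adjusted p = 0.00182) farthest from 0. They were chosen by their slopes on Alb, which was lower in every HFD library, so their being lower is no separate result. Slc1a2 held 7 to 58 counts per HFD library, and Slc7a4, also among the 9, held 8 to 13. Neither passed the filter on low counts over the HFD libraries alone. Groups did not overlap for 8 tested members lower and 1 higher in HFD, against 14.8% and 15.8% of all genes. The median log2 fold change of the tested members was -0.27, beside -0.00 for all genes. By role, the lower members were the 1 tested carrier of glutamate (Slc1a2), the 1 tested carrier of system N (Slc38a3), 1 of 3 of system A, 2 of 3 cationic carriers, 1 of 2 heavy chains, 1 of 5 light chains, 1 of 2 proton-coupled carriers and 1 of 3 Slc43 carriers. None of the 4 Slc38 carriers outside systems A and N passed, nor did either exchanger of the ASCT type (Slc1a4 and Slc1a5).

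Slc38a4 had a log2 fold change of -4.52 ± 0.80 (adjusted p = 0.00226). Slc7a2 had a log2 fold change of -4.07 ± 0.80 (adjusted p = 0.00367) and Slc3a1 of -3.85 ± 0.73 (adjusted p = 0.00297). With log2 Alb as a covariate, Slc38a3 was the 1 member still past the threshold (-1.13 ± 0.27, adjusted p = 0.0477). Slc1a2 was then at -0.33 ± 0.43, Slc38a4 at -0.46 ± 0.47, Slc3a1 at -0.26 ± 1.10 and Slc7a2 at 0.14 ± 0.77. With the mean of the hepatocyte markers as the covariate, Slc38a3 was at -0.82 ± 0.18 (adjusted p = 0.028), Slc3a1 at 0.31 ± 0.92 and Slc7a2 at 0.60 ± 0.59. Since no HFD library reached the Alb level of any LFD library, albumin and diet cannot be told apart in these fits.

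Among the light chains, Slc7a6 (chr8:106168857-106198706), the exchanger of cationic for neutral amino acids, was the only member higher in HFD. It measured 29.6, 41.3, 37.5, 41.0 and 27.02 CPM in LFD and 58.3, 53.3, 55.1, 56.6 and 55.7 CPM in HFD. All HFD libraries lay above all LFD libraries, by 0.66 ± 0.12 log2 (adjusted p = 0.00239). With log2 Alb as a covariate the difference was 0.29 ± 0.21 and did not pass (adjusted p = 0.463).

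Slc7a11 (chr3:49892526-50443614), the cystine and glutamate exchanger, was lower in HFD (-1.15 ± 0.27 log2, adjusted p = 0.00728). It measured 2.54, 3.63, 2.51, 5.50 and 2.69 CPM in LFD and 1.45, 1.77, 1.01, 1.51 and 1.86 CPM in HFD. The level was low in both groups, and LFD replicate 4 was highest. Its albumin slope was -0.05 ± 0.11 (adjusted p = 0.786), and with Alb as a covariate the difference was -1.38 ± 0.56 (adjusted p = 0.18), as large but less precise.

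Of the proton-coupled carriers, Slc36a1, which exports small amino acids from lysosomes, was lower in every HFD library. It measured 66.8, 63.2, 63.4, 68.8 and 80.1 CPM in LFD and 49.3, 48.0, 49.9, 49.6 and 45.7 CPM in HFD (-0.50 ± 0.08 log2, adjusted p = 0.00108). The covariate left -0.35 ± 0.16 (adjusted p = 0.251). Slc7a4, a member of the cationic family with no settled substrate, stood at 1.10, 0.933, 0.599, 0.943 and 1.87 CPM in LFD and 0.548, 0.455, 0.655, 0.403 and 0.391 CPM in HFD. Its difference of -1.11 ± 0.31 log2 passed (adjusted p = 0.017), although LFD replicate 3 lay below HFD replicate 3, and it was lost when the closest HFD libraries were summed (adjusted p = 0.0575) and with Alb as a covariate (-0.37 ± 0.63, adjusted p = 0.777). Slc7a4 shares 13.3% of its exon bases with P2rx6 on the opposite strand.

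**Figure D4:**
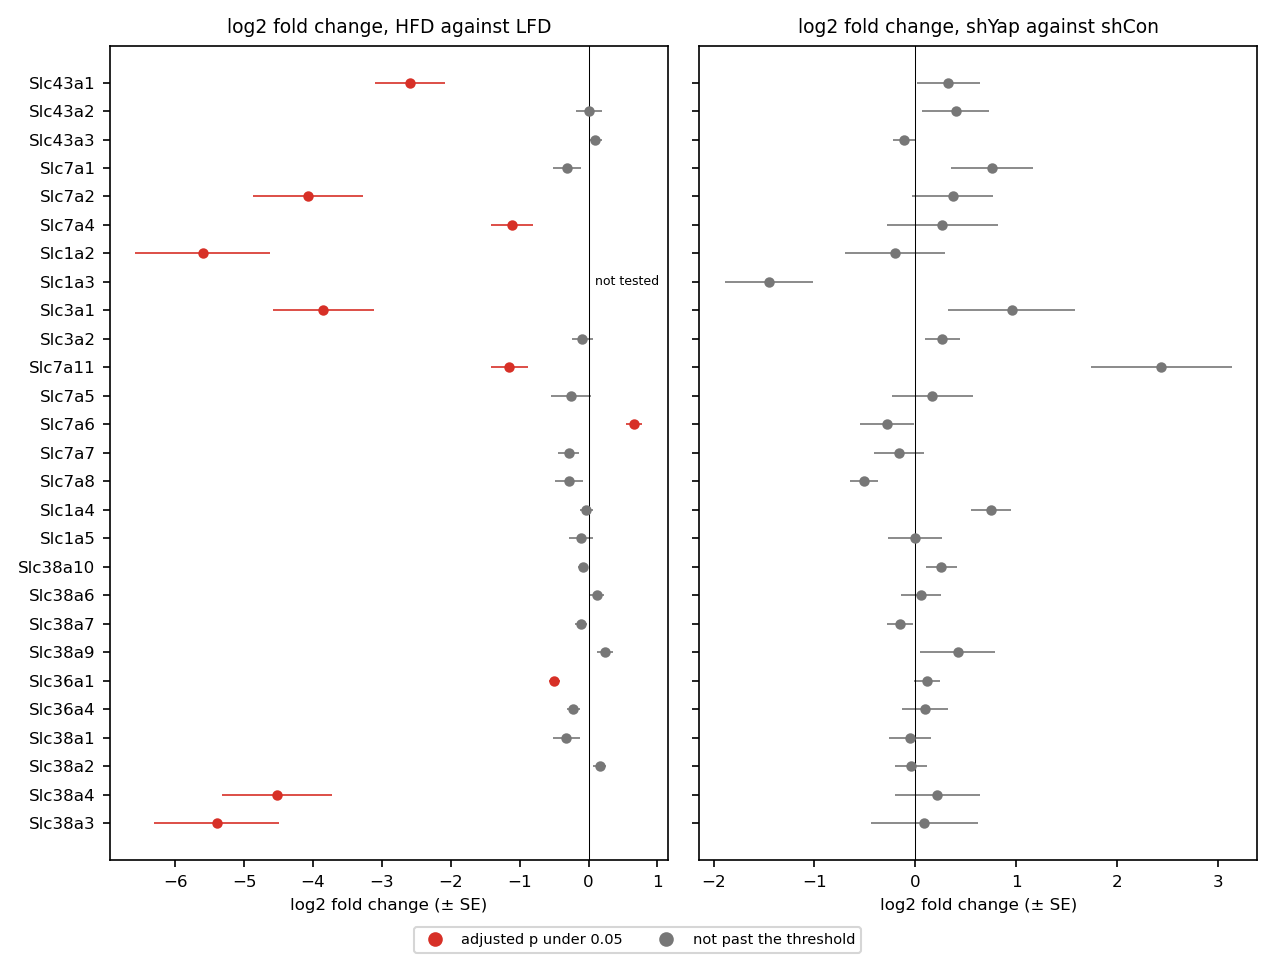
Log2 fold change (± SE) of each tested transporter, HFD against LFD on the left and shYap against shCon on the right, ordered by role; red points have an adjusted p under 0.05. On the left the albumin-following members lie from -3.85 to -5.60 and Slc7a6 alone is red to the right of 0, and on the right no point is red and Slc7a11 lies farthest out at 2.44.

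Of the members among the 8 highest per-length levels of LFD or HFD, those outside the albumin-following set did not pass in the diet comparison, except Slc7a6. Slc7a5, the light chain of the leucine carrier, measured 109.8, 282, 180.3, 310.3 and 125 CPM in LFD and 208.5, 160.4, 152, 136 and 185 CPM in HFD (-0.26 ± 0.29 log2, adjusted p = 0.495). Its partner Slc3a2 measured 118, 189, 152, 198 and 120.4 CPM in LFD and 162, 139.8, 141, 132 and 154 CPM in HFD (-0.09 ± 0.15). The LFD values spread widely around the HFD ones, with LFD replicates 2 and 4, the lowest of their group in Alb, highest in both genes. Slc38a2, the stress-inducible system A carrier, measured 233, 240.0, 266, 279 and 334 CPM in LFD and 297, 303, 315, 321 and 280.4 CPM in HFD (0.16 ± 0.10). Without LFD replicate 5, 2 members were higher and 10 lower, with Slc38a2 and Slc38a1 added to those past the threshold. Slc1a5, the glutamine exchanger, measured 67.1, 103, 79.0, 84.7 and 46.0 CPM in LFD and 74.0, 65.8, 70.4, 69.4 and 72.2 CPM in HFD (-0.11 ± 0.17). Slc38a10 ranged from 122 to 147 CPM in LFD and from 126 to 136 CPM in HFD, Slc43a3, a nucleobase carrier, from 51.7 to 62.2 and from 52.9 to 70.5, and the lysosomal glutamine carrier Slc38a7 from 36.6 to 48.2 and from 35.6 to 43.4. Over the 16 members that did not pass, log2 fold changes ran from -0.32 (Slc38a1) to 0.24 (Slc38a9), 5 above and 11 below 0.

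Heavy and light chains were compared within groups, as the correlation of the log2 deviations of Slc3a2 and a light chain from their group means. In the diet table (n = 10) Pearson's r with Slc3a2 was 0.996 for Slc7a5 (Spearman's rho 0.99, exact permutation p = 0.000139 within groups, adjusted p = 0.00139 over 10 relations). It was 0.918 for Slc7a6 (rho 0.85, exact permutation p = 0.0166, adjusted p = 0.0415), 0.847 for Slc7a7 (rho 0.93, exact permutation p = 0.00569, adjusted p = 0.019) and 0.917 for Slc7a8 (rho 0.93, exact permutation p = 0.000278, adjusted p = 0.00139). Leaving out LFD replicates 1 and 4, farthest from the median of Slc3a2, left r at 0.99, 0.88, 0.80 and 0.88. HFD libraries differed little from each other, so most of the spread came from the LFD libraries, in which Slc3a2, Slc7a5 and Slc7a6 also had negative albumin slopes. The part of Alb in these correlations was not tested. Carriers that are not light chains of Slc3a2 were not set beside them. Among these, Slc38a1 was also highest in LFD replicates 4 and 2 (66.3, 101.7, 90.4, 121.5 and 52.2 CPM in LFD replicates 1 to 5). Slc7a1 had the same order (67.8, 113.1, 104, 141.4 and 64.3 CPM). Whether the correlations are particular to partners was therefore not tested. For Slc7a11 r was 0.714 (rho 0.50, exact permutation p = 0.0712, adjusted p = 0.119). In the hairpin table (n = 8) no light chain passed: r was 0.637 for Slc7a5 (rho 0.69, exact permutation p = 0.128, adjusted p = 0.183), 0.766 for Slc7a6 (rho 0.83, exact permutation p = 0.0469, adjusted p = 0.0938), -0.156 for Slc7a7, 0.172 for Slc7a8 and 0.376 for Slc7a11. Without shCon replicate 1 and shYap replicate 1 these became 0.21, 0.55, -0.52, -0.42 and 0.05, so what relation there was for Slc7a5 rested on those libraries.

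Slc43a1, a carrier of leucine and other large neutral amino acids, was lower in HFD (-2.59 ± 0.51 log2, adjusted p = 0.00345). Its albumin slope did not pass in the diet table (-0.06 ± 0.18, adjusted p = 0.845). There LFD replicate 2, the lowest of its group in Alb, was highest in Slc43a1. The slope was 0.24 ± 0.18 (adjusted p = 0.518) in the hairpin table. Over the shCon libraries alone it was 0.53 ± 0.22 (adjusted p = 0.233). Slc43a1 measured 6.73, 22.5, 3.32, 4.50 and 13.9 CPM in LFD and 1.20, 1.87, 1.61, 1.61 and 2.15 CPM in HFD. LFD replicates 2 and 5 were highest, and all LFD libraries lay above all HFD libraries. The erythroid marker sum (5 genes, among them the haemoglobins and Alas2) was 310, 7613, 175, 848 and 585 CPM in LFD and 66.8 to 321 CPM in HFD libraries. Without LFD replicate 2 the difference in Slc43a1 was -2.06 ± 0.40 and still passed (adjusted p = 0.00327). With Alb as a covariate it was -2.89 ± 1.0 and did not (adjusted p = 0.128). Slc38a5, a system N carrier of glutamine and serine, did not pass the filter on low counts in either table. It had 144 counts in LFD replicate 2 and 24 in LFD replicate 4, the libraries with the highest erythroid sums, with 1 in LFD replicate 5 and 0 in LFD replicates 1 and 3 and in every HFD library. The red cell anion exchanger Slc4a1 stood at 347 CPM in LFD replicate 2, at 34.3 CPM in LFD replicate 4 and at no more than 5.45 CPM in the other LFD and the HFD libraries. Among hairpin libraries Slc38a5 was highest, at 0.51 CPM, in shYap replicate 3, which also had the highest erythroid sum of that table (792 CPM). The part of erythroid RNA in either member was not tested.

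Other genes of amino acid handling were grouped in 7 lists. The values over all genes to set beside them were a median of -0.00, 19.4% higher and 21.6% lower in HFD, and albumin slopes above 0 in 6.73% of the diet table and 3.31% of the hairpin table. Of 16 tested amino acid carriers of other families, 10 were lower in HFD and 0 higher, with a median log2 fold change of -0.53. Slc6a12, a carrier of betaine and GABA known from liver, was at -5.29 ± 0.76, the aromatic amino acid carrier Slc16a10 at -2.37 ± 0.38 and the mitochondrial glutamate carrier Slc25a22 at -1.65 ± 0.30. In this list 5 genes had albumin slopes above 0 in the diet table and 4 in the hairpin table, with Slc6a12 at 0.85 ± 0.08 and 0.89 ± 0.16. Of 11 enzymes of glutamine and glutamate, 6 were lower and 0 higher (median -0.80), led by the liver glutaminase Gls2 (-4.41 ± 0.65), the alanine aminotransferase Gpt (-3.94 ± 0.65) and glutamine synthetase Glul (-2.38 ± 0.42). Slopes were above 0 for 3 of these 11 in each table, and Gpt passed in both (0.60 ± 0.13 and 0.83 ± 0.12). Of 11 cystine and glutathione genes, 6 were lower and 1 higher (median -0.37). Cbs of transsulfuration was at -5.09 ± 0.95, both subunits of glutamate-cysteine ligase were lower, Gclc at -2.35 ± 0.51 and Gclm at -1.12 ± 0.25, and the glutathione reductase Gsr was higher at 0.46 ± 0.12. Slopes in this list were above 0 for 3 genes in the diet table and 2 in the hairpin table.

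Of 24 targets of the amino acid response, the programme that the factor ATF4 drives when amino acids are scarce, 3 were higher in HFD and 6 lower (median -0.18), shares near those of all genes (19.4% and 21.6%). Pycr1 of proline synthesis was at 1.18 ± 0.12, the alanyl-tRNA synthetase Aars at -0.57 ± 0.08, Shmt2 of mitochondrial serine metabolism at -0.87 ± 0.14 and Cth, the liver enzyme that makes cysteine, at -4.64 ± 0.77. Cth was 1 of 3 genes of the list with an albumin slope above 0 in the diet table (0.75 ± 0.13). Of 21 tested genes of amino acid sensing by mTORC1, 4 were higher and 3 lower (median 0.14), with the GTPase Rraga at 0.53 ± 0.09, Depdc5, of the complex that inhibits it, at 0.32 ± 0.08, Lamtor1, part of its lysosomal anchor, at -0.36 ± 0.09 and the partner GTPase Rragc at 0.35 ± 0.10. These counts, and those of the kinases and regulators that follow, come from lists of 8 to 21 genes and are to be read against the same shares over all genes. Of 8 tested genes of the kinases that shut down translation and their partners, 2 were higher, among them Impact (0.72 ± 0.08), and 2 lower, among them Eif2ak1, the haem-regulated kinase (-0.67 ± 0.10), with a median of -0.12. Of 10 transporter regulators, 3 were higher and 1 lower (median -0.05), and Cd44, of which a variant form holds Slc7a11 at the cell surface, was at 0.64 ± 0.13.

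The hairpin comparison asked how the Yap hairpin altered tumours on the high-fat diet. No transporter passed among 27 tested with edgeR, and neither did any other gene, so the background was 0% of 16571 genes. At an unadjusted p under 0.05 there were 4 members and 1804 genes. Limma voom called 0 members and 0 genes. DESeq2 called 409 genes, 0.743% of 16563 higher and 1.73% lower, and 2 members higher: Slc7a11 (2.44, adjusted p = 0.00959) and Slc1a4 (0.76, adjusted p = 0.0382). Of the tested members, 18 had a log2 fold change above 0 and 9 below, with a median of 0.12 beside 0.03 for all genes. The summed T cell markers did separate these groups (35.7 to 82.1 CPM in shCon and 16.3 to 27.2 CPM in shYap, 8 of 8 markers found, none at 0), alone among 10 marker sums, and the part of T cell RNA in the values below was not tested.

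Slc7a11 measured 1.002, 0.62, 1.16 and 3.49 CPM in shCon and 17.9, 9.04, 3.12 and 3.86 CPM in shYap. The difference was 2.44 ± 0.70 log2 with an adjusted p of 0.262 in edgeR, and the groups overlapped because shCon replicate 4 lay above shYap replicate 3. Slc1a4 (chr11:20302180-20332713), the neutral exchanger of alanine, serine and cysteine, measured 31.8, 30.8, 30.3 and 50.7 CPM in shCon and 70.4, 58.9, 49.5 and 62.9 CPM in shYap (0.75 ± 0.20, adjusted p = 0.208). Here too shCon replicate 4 stood apart from the other 3 of its group and overlapped shYap replicate 3. Without shCon replicate 4, edgeR called 94 genes, among them Slc1a4 (0.97 ± 0.15, adjusted p = 0.0429). With any 1 library left out, the difference in Slc7a11 ranged from 1.77 to 3.19 log2, highest without shCon replicate 4, with adjusted p from 0.0871 to 0.672. That in Slc1a4 ranged from 0.67 to 0.97, with adjusted p from 0.0429 to 0.602.

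Slc7a8, the light chain of a neutral exchanger, was the only one of the 27 tested members whose groups did not overlap. It measured 74.5, 73.2, 60.5 and 78.9 CPM in shCon and 56.0, 42.1, 49.5 and 54.6 CPM in shYap (-0.51 ± 0.14, adjusted p = 0.22). Non-overlap of that direction was found in 3.96% of all genes, and of the other in 2.61%. Among members that failed the filter, Slc7a3 also did not overlap, with 1, 3, 1 and 5 counts in shCon and 5, 5, 8 and 6 in shYap (0.0463 to 0.242 and 0.253 to 0.454 CPM). Slc1a3, a glutamate carrier at 0.501 to 1.10 CPM in shCon and 0.152 to 0.505 CPM in shYap, was at -1.45 ± 0.44 (adjusted p = 0.291). Slc7a1, the general arginine carrier, was even within shCon (92.5, 84.8, 87.9 and 117 CPM) and uneven within shYap (303, 182, 73.6 and 89.0 CPM), giving 0.76 ± 0.41 (adjusted p = 0.571).

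**Figure D5:**
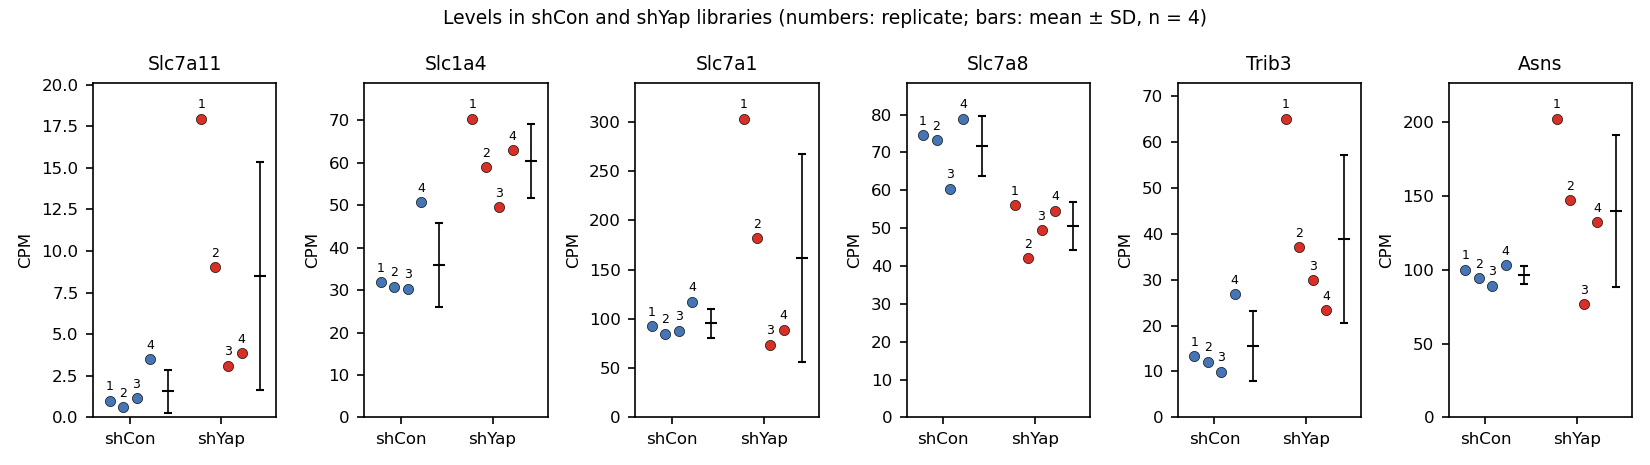
Level (CPM, linear axis from 0) of Slc7a11, Slc1a4, Slc7a1, Slc7a8 and of the amino acid response genes Trib3 and Asns in each shCon (blue) and shYap (red) library, numbered by replicate, with bars for mean ± SD (n = 4). Replicate 1 is the highest shYap library in all panels, replicate 4 is the highest shCon library, and Slc7a8 alone shows no overlap.

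Slc7a11 and Slc1a4, with Slc7a7, were also the 3 of 25 transporters whose promoter windows held TGATGNAA, the letters of the composite site that ATF4 binds. Windows of 4.5% of 27025 genes held it on either strand. The members without a window, among them Slc7a5, Slc1a5 and Slc38a1, were not searched. Of Slc7a11 the 100 bases before the start are shown, chr3:50443614-50443713 on the minus strand, and of Slc1a4 the 100 bases before to 4 bases after it, chr11:20332710-20332813 on the minus strand (RefSeq starts, GRCm38.p6). Capitals mark the matches, written TGATGCAA or, on the other strand, TTGCATCA. They lie at bases -66 to -59 and -47 to -40 in Slc7a11 and at bases -4 to 4 in Slc1a4, with no base 0.
Slc7a11: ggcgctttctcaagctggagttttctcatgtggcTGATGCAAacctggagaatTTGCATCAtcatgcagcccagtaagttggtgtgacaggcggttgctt
Slc1a4: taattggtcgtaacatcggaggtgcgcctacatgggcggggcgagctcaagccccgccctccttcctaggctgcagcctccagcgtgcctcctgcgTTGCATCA
GGAATG, the core bound by the TEAD factors through which Yap acts, was in the windows of 6 of 25 transporters (Slc1a2, Slc1a6, Slc36a1, Slc43a1, Slc43a2 and Slc7a7), beside 16.6% of all genes. A match, or the lack of one, describes the letters of these windows only. Binding by ATF4 or TEAD factors was not tested.

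None of the 24 amino acid response targets passed in the hairpin comparison with edgeR. All 24 had a log2 fold change above 0 (median 0.46), beside 53.9% of all genes. Genes of 1 programme measured in the same libraries are not independent, so this count of signs was not tested. At an unadjusted p under 0.05 edgeR had 8 of them, beside 4.76% of all genes that were above 0 at that p, and limma voom called 0 and DESeq2 called 3 higher (Ddit3, Sars and Trib3). The seryl-tRNA synthetase Sars was at 0.44 ± 0.12 and Eif4ebp1, a repressor of translation, at 0.63 ± 0.18 in edgeR. Trib3, a pseudokinase induced by ATF4, stood at 13.3, 12.1, 9.99 and 26.8 CPM in shCon and 65.0, 37.0, 29.9 and 23.4 CPM in shYap (1.32 ± 0.40, adjusted p = 0.287). Asns, asparagine synthetase, stood at 100, 94.0, 89.0 and 103 CPM in shCon and 202, 147, 76.7 and 132 CPM in shYap (0.53 ± 0.25, adjusted p = 0.488). Ddit3, an ATF4-induced factor of stress, stood at 8.61, 9.40, 9.39 and 10.3 CPM in shCon and 19.1, 18.1, 55.1 and 11.4 CPM in shYap (1.46 ± 0.44, adjusted p = 0.293), with no overlap of the groups and shYap replicate 3 highest. As with Slc7a11 and Slc7a1, shYap replicate 1 was the highest library of its group in Trib3, Asns, Psat1 (302 CPM) and Chac1 (24.8 CPM), and shCon replicate 4 was the highest of its own group in Trib3, Chac1 (15.6 CPM) and Sesn2 (48.5 CPM). Not every gene followed this order: Psat1 was highest in shCon replicate 1 (157 CPM, against 133 in replicate 4), and Cth was highest in shYap replicate 2 (39.2 CPM, against 29.4 in replicate 1), as Ddit3 was in replicate 3. The choice of Asns, Psat1, Chac1, Sesn2 and Cth here was made with their values in view. In the other 6 lists 0 genes passed with edgeR or limma voom, with medians from -0.07 for the kinases to 0.17 for the glutamine enzymes. At an unadjusted p under 0.05 edgeR had 3 kinase genes and 1 gene each among the cystine, glutamine and regulator lists, and DESeq2 called Got1, the cytosolic aspartate aminotransferase (0.58 ± 0.14 in edgeR).

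The abundant carriers of the hairpin table did not separate the groups. Slc7a5 measured 271, 224, 243 and 168 CPM in shCon and 449, 293, 107 and 168 CPM in shYap (0.17 ± 0.40). Slc3a2 measured 163, 133, 117 and 119 CPM in shCon and 198, 162, 155 and 127 CPM in shYap (0.27 ± 0.17), and Slc38a2 measured 256, 248, 263 and 222 CPM in shCon and 306, 246, 217 and 193 CPM in shYap (-0.04 ± 0.16). Slc1a5 ranged from 90.5 to 107 CPM in shCon and from 62.8 to 152 CPM in shYap (0.00 ± 0.27). The shYap range was the wider in all of these genes. Slc38a9, the lysosomal arginine sensor, and Slc43a2, a neutral carrier, were highest in shYap replicate 3 (50.1 and 106 CPM, against 15.4 to 18.4 and 32.3 to 48.0 CPM in the other 3 shYap libraries). Without that library the difference in Slc43a2 went from 0.40 ± 0.33 to -0.06 ± 0.14.

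The members that did not pass the filter on low counts had few or no reads in most libraries, although Slc38a5 had 144 counts in LFD replicate 2. Slc1a6, Slc7a3, Slc7a15, Slc36a2 and Slc1a3, with Slc38a5, did not pass the filter in the diet table, and the same genes other than Slc1a3 failed it in the hairpin table together with Slc1a7 and Slc36a3. Summed over the 5 libraries of a group, Slc7a3, an arginine carrier of brain, had 23 counts in LFD and 36 in HFD, and Slc1a6, a glutamate carrier of the cerebellum, 6 and 16. Slc1a3, a glutamate carrier, measured 1.31, 1.55, 0.381, 1.26 and 0.488 CPM in LFD and 0.149, 0.202, 0.0504, 0.151 and 0.147 CPM in HFD, from 86 and 14 counts in all. Its groups did not overlap. It was lower in HFD when edgeR was run with no filter (-2.77 ± 0.49 log2, adjusted p = 0.00223) and with the closest HFD libraries summed (-2.79 ± 0.58, adjusted p = 0.0152). Slc1a7 had 2 counts in shCon and 1 in shYap, and Slc36a3 had 5 and 3. With no filter, edgeR called no difference between groups for the other members named here as failing it, with adjusted p from 0.1 to 0.985.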

How the data were processed

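RNA sequencing of 18 libraries was used as 2 gene tables. The authors deposited estimated counts for each gene, of which 60.1% (diet table) and 62.5% (hairpin table) were whole numbers, and the lowest mean of any gene in the diet table was 1. The submitters' processing notes name STAR 2.7.3a, Partek and DESeq2, with no role, and the build GRCm38. The gene annotation and the strand setting are not given in the sources used here.

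Counts were rounded, genes low in counts were dropped by filterByExpr, and each table was fitted alone with edgeR 4.0.16 (TMM factors, robust quasi-likelihood test, Benjamini-Hochberg adjustment over all genes of the table) in R 4.3.3. The albumin slope is the coefficient of log2(Alb CPM + 1) beside the group. Alternatives used DESeq2 1.42.0, limma 3.58.1 voom, other size factors, other filters, covariates, a replicate block and left-out libraries; slopes over the libraries of 1 group alone were added after the data had been seen. Correlations used exact permutations in Python 3.11.15 with scipy 1.17.1. The fits were also run on simulated counts with known group differences or known albumin slopes. That simulation held no difference in liver RNA between the diets, so it cannot speak to that limit.

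Values per library are given for members past an adjusted p of 0.05 or among the 8 highest levels per length, and up to 4 genes per list by the smallest p. Others were named with their values in view. These were Slc7a11, Slc7a1, Slc7a8, Slc1a3, Slc38a9 and Slc43a2 in the hairpin comparison, Slc1a3, Slc38a1 and Slc7a1 in the diet table, Slc7a3 and Slc38a5. Members, lists and tests were chosen with earlier results of these data known. The 10 marker lists and 7 gene lists are those whose values the report gives. All 34 members matched a gene start of the GENCODE annotation, from which exon lengths were taken.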

Additional observations from a re-analysis of the deposited data

Results flagged for a closer look

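Within groups of 4 or 5 libraries, 6 of 114 sets of transporter values had 1 library far from the rest by Dixon's criterion, which chance alone reaches in about 1 of 20. In the hairpin table, Slc1a4 (50.7 CPM, the others 30.3 to 31.8) and Slc36a1 (70.1 CPM, the others 53.7 to 56.1) were high in shCon replicate 4. Slc36a1 (74.9 CPM, the others 59.6 to 62) and Slc38a9 (50.1 CPM, the others 15.4 to 18.4) were high in shYap replicate 3. Slc36a4 was low in shCon replicate 2 (9.25 CPM, the others 14.3 to 14.9). In the diet table, Slc7a7 was low in HFD replicate 2 (11.6 CPM, the others 12.9 to 13.3).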

How the results depend on the processing

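With Alb as a covariate, HFD against LFD gave 661 genes in place of 6710, with 0 transporters higher and 1 lower, and Slc7a2 turned to 0.14; with the hepatocyte markers it gave 954 genes, 0 higher and 1 lower, Slc3a1 at 0.31 and Slc7a2 at 0.60. Summing the closest HFD pairs left 4233 genes. Leaving out 1 library gave 5523 to 7253 genes, 1 to 2 transporters higher and 9 to 10 lower. The albumin slope of the diet table called 1151 genes, against 2196 on hepatocyte markers without Alb, 1977 with DESeq2, 6632 with no group term (9 transporters above 0 and 1 below), 5400 over LFD alone (7 below) and 689 over HFD alone; with no filter 1 transporter (Slc38a5) was below 0, and without 1 library the count was 770 to 1427. In the hairpin table the slope called 567 genes, against 1785 on hepatocyte markers (5 transporters above and 1 below 0), 1395 with DESeq2 (5 above), 5 transporters above 0 over shCon alone (beside 776 genes, 5.01% of 15489), 0 genes and 0 transporters over shYap alone, and 49 to 1036 genes with 0 to 5 transporters above and 0 to 1 below when 1 library was left out. For shYap against shCon, DESeq2 called 409 genes and 2 transporters higher, the hepatocyte covariate 1 gene, and leaving out 1 library 0 to 94 genes with 0 to 1 transporters higher; Slc43a2 ran from -0.06 (without shYap replicate 3) to 0.59. Replicate numbers did not pair libraries (correlations of same-numbered deviations 0.315, -0.5, 0.104, 0.304 and -0.272 in the diet table, 0.00572, -0.052, 0.182 and 0.178 in the hairpin table). The submitters' column names give shYap replicate 3 the number 4. By that name it would pair with shCon replicate 4, at a correlation of -0.388. With the replicate block the slope called 446 genes in the diet table, without Slc7a2 (0.76, adjusted p = 0.127), and 0 genes and 0 transporters in the hairpin table, and Slc7a4 lost its call in HFD against LFD (-1.07, adjusted p = 0.0665). The causes of these shifts were not tested. Slc7a11, Slc7a4 and Slc1a3, and Slc1a2 in HFD, rest on low counts, which limits their precision.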
